A study of Mus musculus with 12 samples.

Results

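The genes described here are the tumour suppressor p53, 4 genes it is known to induce, and the inhibitors that hold the cell cycle before S phase. They were chosen by name: Trp53, Mdm2, Cdkn1a, Cdkn1b, Cdkn2a, Cdkn2b, Cdkn2c, Ccng1, Trp53inp1 and Rb1. All 10 were found among the 24341 gene symbols (24888 entries) of each library, each at a single locus. The study has 12 RNA-seq libraries from mouse adipocytes grown in culture, 2 in each of 6 groups. For 8 of them, preadipocytes of inguinal white fat from C57BL/6 mice were differentiated with rosiglitazone, an agonist of the nuclear receptor PPARγ, into cells labelled beige, or without it into cells labelled white. The donors were wild type (WT) or labelled ATF7KO, called KO-labelled here. The other 4 libraries came from C3H10t1/2, an established mouse mesenchymal cell line, made beige with rosiglitazone as a control or with the transcription factor ATF7 overexpressed. All groups except the white ones thus received the drug. The labels do not give the deleted allele, the overexpression vector, the number of mice or the age of the donors, and cultures of primary preadipocytes can hold other cells of the fat depot.

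The protein p53 is a transcription factor that responds to DNA damage and other stresses, and it is controlled largely through the stability of the protein, which RNA does not show. Mdm2 encodes the ubiquitin ligase that destroys p53, and p53 in turn induces Mdm2. Cdkn1a encodes p21, which with its relative p27 (Cdkn1b) binds cyclin and kinase pairs, while the INK4 proteins encoded by Cdkn2a, Cdkn2b and Cdkn2c block the kinases of cyclin D. Both kinds of inhibitor keep the retinoblastoma protein (Rb1) active, so that it holds E2F factors in check. Preadipocytes leave the cell cycle as they become adipocytes.

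Levels are in FPKM, which divides fragments by transcript length and by library size and so allows genes to be compared. Between 9844 and 10877 genes reached 1 FPKM in a library, and the read depth is unknown. Atf7, the targeted gene, stood at 7.26 and 7.94 FPKM in KO-labelled beige against 7.80 and 7.83 FPKM in WT beige libraries, and at 6.88 and 7.73 against 9.10 and 7.10 FPKM in white ones. A value per gene does not show a deletion of part of it, so every direction given for KO-labelled libraries rests on their labels. With overexpression, Atf7 stood at 41.2 and 39.1 FPKM against 8.52 and 9.09 FPKM in the controls. Fold changes are differences of log2(FPKM + 1), which understate the change of low genes, with adjusted p-values from limma over all genes tested and a threshold of 0.05. Nothing in the labels says that the 2 libraries of a group came from separate cultures or animals, so p-values measure the spread between these libraries, which may be technical.

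The stretches before the start sites of 5 members are shown because they hold letters known from p53, E2F or ATF and CREB binding sites. The stretch of Trp53 holds such letters too and is not shown. Sequences are from RefSeq on GRCm38.p6, the build of the FPKM values (mm10), and 8 of the 10 members had an entry, with 11 start sites. Each line runs 5′ to 3′ on the gene's own strand, over the bases before the start that overlap no annotated exon. Capitals mark the 10-base unit of the p53 site (a p53 decamer) in Cdkn1a, Ccng1 and Mdm2. They also mark the cyclic AMP response element in Cdkn2b and an E2F site in Cdkn2a. Only exact matches are marked, and near matches stay in lower case.
Cdkn1a (chr17:29090729-29090975, plus strand): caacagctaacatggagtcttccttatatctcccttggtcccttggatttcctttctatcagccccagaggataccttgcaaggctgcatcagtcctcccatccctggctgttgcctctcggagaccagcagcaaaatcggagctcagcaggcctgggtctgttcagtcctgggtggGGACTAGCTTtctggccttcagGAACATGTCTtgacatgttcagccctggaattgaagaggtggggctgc
Ccng1 (chr11:40755312-40755536, minus strand): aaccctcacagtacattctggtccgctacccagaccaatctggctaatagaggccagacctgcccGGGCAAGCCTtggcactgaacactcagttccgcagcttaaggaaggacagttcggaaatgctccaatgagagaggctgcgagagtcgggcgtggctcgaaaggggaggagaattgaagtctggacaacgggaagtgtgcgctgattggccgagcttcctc
Mdm2 (chr10:117710759-117711008, minus strand): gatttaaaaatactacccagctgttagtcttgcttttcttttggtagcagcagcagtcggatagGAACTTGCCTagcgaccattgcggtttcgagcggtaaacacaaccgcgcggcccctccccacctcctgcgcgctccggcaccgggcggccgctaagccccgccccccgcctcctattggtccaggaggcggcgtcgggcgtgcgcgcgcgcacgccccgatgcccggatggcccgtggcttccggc
Cdkn2b (chr4:89311040-89311282, minus strand): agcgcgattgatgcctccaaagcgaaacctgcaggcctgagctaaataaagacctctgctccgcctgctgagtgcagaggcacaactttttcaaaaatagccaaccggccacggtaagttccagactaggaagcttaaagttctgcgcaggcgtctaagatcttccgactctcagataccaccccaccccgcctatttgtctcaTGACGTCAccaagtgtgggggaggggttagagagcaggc
Cdkn2a, upstream start (chr4:89294654-89294869, minus strand): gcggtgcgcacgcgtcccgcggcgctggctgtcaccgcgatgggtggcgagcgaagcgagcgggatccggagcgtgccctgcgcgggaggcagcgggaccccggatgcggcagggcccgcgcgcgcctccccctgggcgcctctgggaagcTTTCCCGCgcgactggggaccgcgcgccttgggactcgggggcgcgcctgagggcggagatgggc

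Cdkn1a holds a pair of p53 decamers between positions -73 and -42 from the start shown. The letters searched were RRRCWWGYYY, with R for A or G, W for A or T and Y for C or T, as exact matches only. By that rule the pair is close enough together to count as a full p53 response element (decamers 0 to 13 bases apart). The stretch tgacatgttc, right after the downstream decamer, misses those letters only at its first base and is not marked. Which pair forms the element cannot be told from this search. The window of its other start site held no such pair. Such a pair is in 0.0731% of the 32851 start-site windows of the mouse genome, each of 300 bases, 250 before the start and 50 after it. A p53 decamer, alone or in a pair, is in 8.36% of all windows and in 4 of the 11 windows of the members: Cdkn1a, Ccng1 (-185 to -176), Mdm2 (-186 to -177) and Trp53 (-75 to -66). In Ccng1 the stretch agacctgccc, right before its decamer, misses the letters at 1 base. The exact search therefore does not show that this decamer stands alone, and sites outside the windows were not searched. The palindrome TGACGTCA, the cyclic AMP response element that ATF and CREB factors are known to bind, is in 1.79% of windows and in 1 of the 11, at positions -46 to -39 of Cdkn2b. An E2F site (TTTCGCGC, TTTGGCGC, TTTCCCGC or TTTGCCGC), in 2.26% of windows, is at -99 to -92 of the upstream start of Cdkn2a. The direct repeat that PPAR binds with its partner RXR (2 copies of AGGTCA with 1 base between), in 0.0396% of windows, was in 0 of the 11. Both strands were searched, the pair is counted among the decamers too, and a match of letters shows neither binding nor a cause.

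Across all libraries Cdkn1a was the most abundant member, with a mean of 61.4 FPKM, above 95.7% of the genes tested in primary cells. Cdkn2c followed with 50.8 FPKM, Ccng1 with 48.5 FPKM and Trp53inp1 with 16.3 FPKM. Mdm2, Cdkn2b and Cdkn1b averaged 13.97, 12.6 and 11.7 FPKM. The lowest 3 were Trp53 (9.97 FPKM), Rb1 (9.20 FPKM) and Cdkn2a (7.68 FPKM), so no member was near the filter of 1 FPKM and all 10 were tested in every comparison. Mdm2 varied least, by 1.12-fold between its highest and lowest group, and Cdkn2a most, by 2.75-fold. White cultures had the highest mean of Cdkn1a, Ccng1, Trp53inp1, Cdkn2a, Cdkn2b (WT) and of Trp53 and Cdkn1b (KO-labelled). Cdkn2c was highest in the C3H10t1/2 line, and Rb1 in KO-labelled beige cultures.

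**Figure D1:**
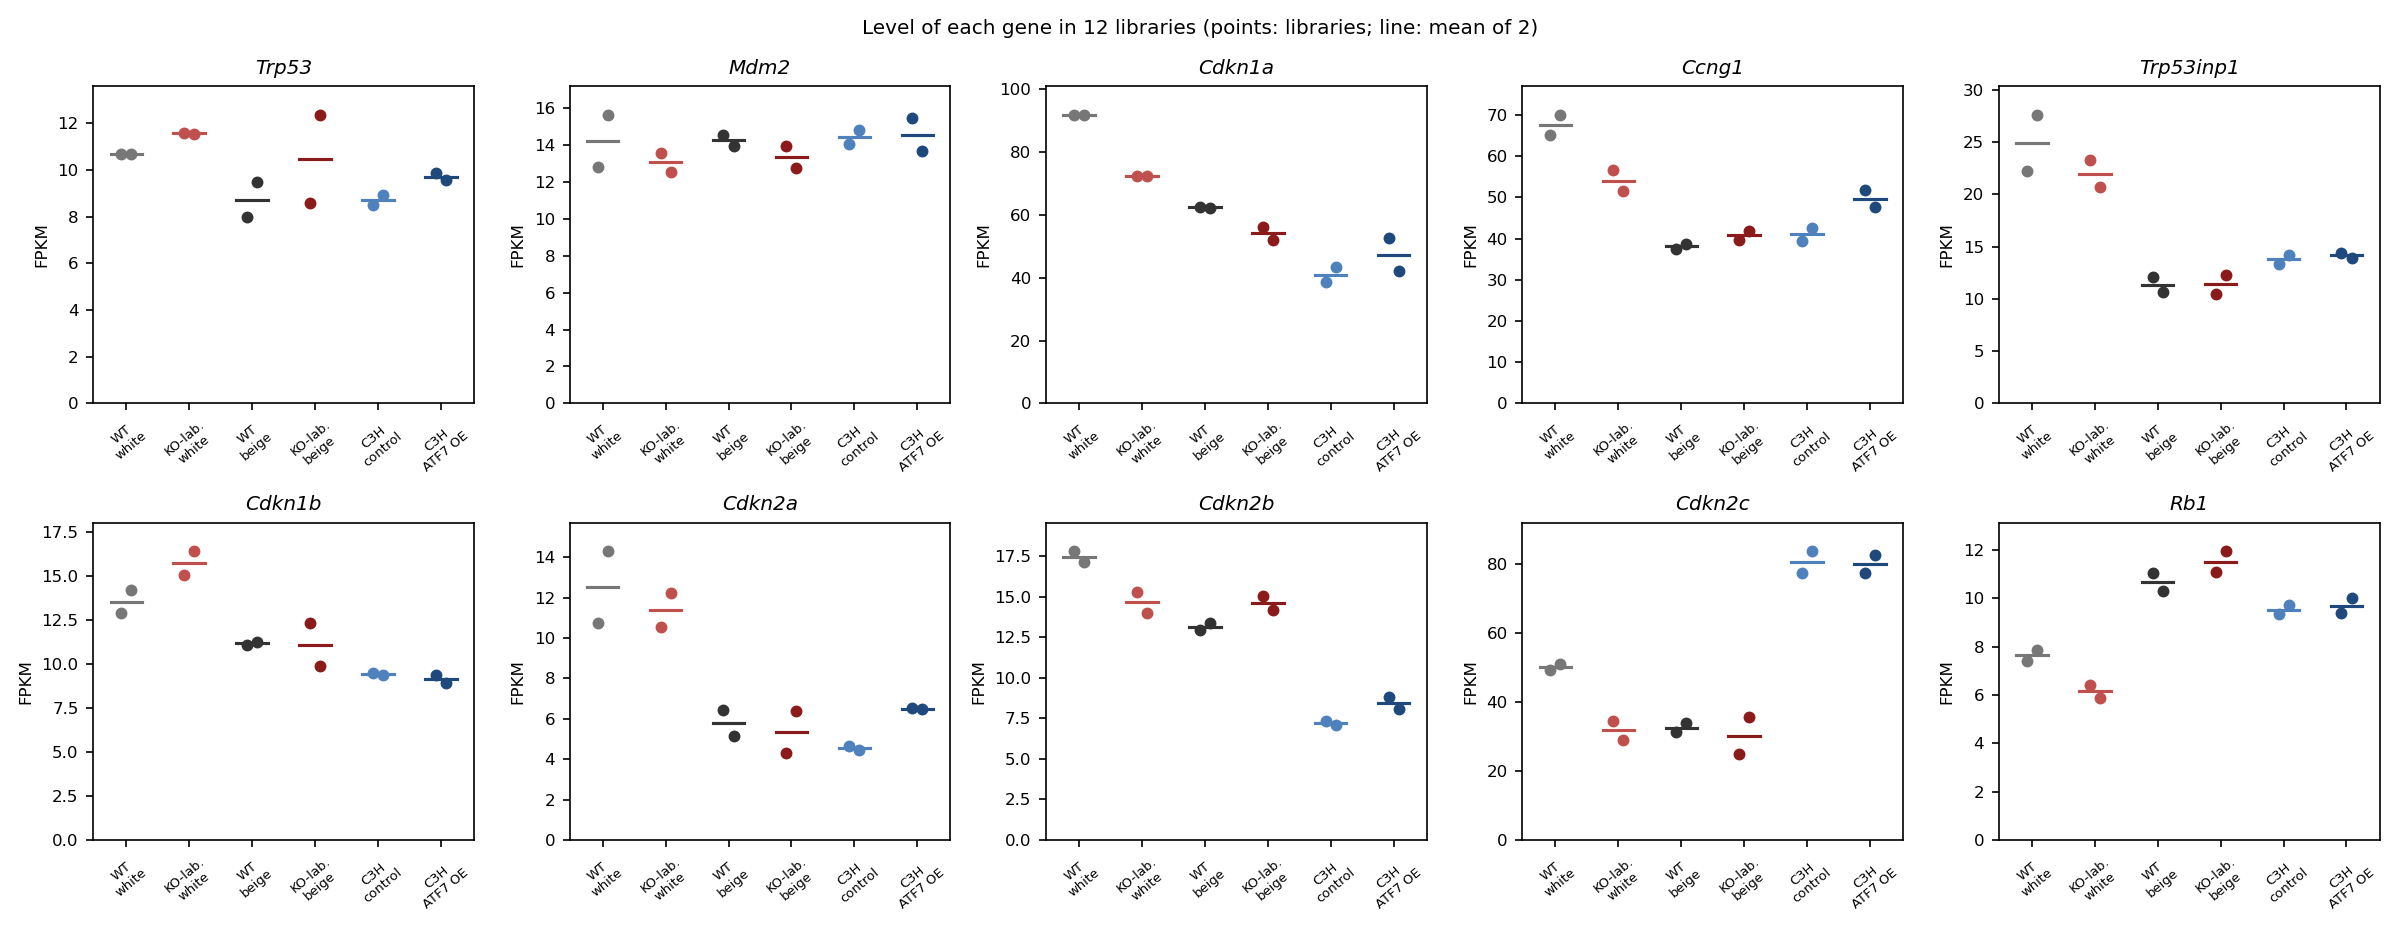
Level of each of the 10 genes in FPKM (vertical axes from 0) in the 12 libraries, with WT and KO-labelled (KO-lab.) white and beige primary cultures and C3H10t1/2 (C3H) control and ATF7 overexpression (OE) along the horizontal axis; points are libraries and lines the mean of 2. Cdkn1a, Ccng1, Trp53inp1 and Cdkn2a stand higher in the white than in the beige primary libraries, Rb1 stands lower, and Mdm2 stays between 12.5 and 15.6 FPKM throughout.

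The comparison of beige with white cultures asks how these genes differ between cells made with and without rosiglitazone. In WT, 6 of the 10 members were lower in beige (Cdkn1a, Cdkn2a, Cdkn2b, Cdkn2c, Ccng1 and Trp53inp1), 1 was higher (Rb1), and Trp53, Mdm2 and Cdkn1b did not pass. Calls were common in this comparison: of all 11294 genes tested 53.7% passed, 32.1% lower and 21.6% higher. The median difference of the members was -0.47 and that of all genes -0.10. Of the calls over all genes 40.2% were higher, against 50.2% after quantile normalization and 28.6% without small RNA genes, a scaling that moved the median of all genes to -0.23. Under both of these scalings the 6 members kept their fall and Rb1 its rise.

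Trp53 itself, the p53 gene, stood at 10.7 FPKM in both WT white libraries and at 7.99 and 9.46 FPKM in WT beige. The groups did not overlap, and over all genes 46.2% were lower and 31.3% higher without overlap, but the difference did not pass (-0.27, 95% interval -0.62 to 0.08, adjusted p = 0.168). Without small RNA genes it passed (-0.42, adjusted p = 0.0283). Mdm2, which encodes the ligase of p53 and is also its target, stood at 12.8 and 15.6 FPKM in white and 14.6 and 13.9 FPKM in beige. The beige values lie within the white ones (0.01, interval -0.25 to 0.27, adjusted p = 0.959), so a fall as large as that of the next 3 target genes is outside the interval.

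Among the p53 targets, Trp53inp1, a stress protein that promotes p53 activity and autophagy, stood at 22.3 and 27.6 FPKM in white and at 12.1 and 10.7 FPKM in beige. The groups were well apart, and the fall was the largest of the members (-1.06, SE 0.13, adjusted p = 0.000187). Ccng1, the atypical cyclin G1, stood at 65.2 and 70.0 FPKM in white, and its beige libraries were lower at 37.5 and 38.8 FPKM (-0.81, SE 0.10, adjusted p = 0.000146). Cdkn1a, at 91.6 and 91.8 FPKM in white, fell to 62.6 and 62.0 FPKM (adjusted p = 0.000983 for a log2 difference of -0.55, SE 0.09), and its libraries lay close together, with a coefficient of variation of 0.0952% in white and 0.653% in beige. Its transcripts share 9.30% of their 36-base words, the length of 1 read, with other annotated genes, mostly 1 on the opposite strand, whose reads could be counted with it if strand was not used.

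Of the INK4 inhibitors, Cdkn2a stood at 10.7 and 14.3 FPKM in WT white and 6.45 and 5.16 FPKM in WT beige libraries (-0.98, SE 0.19, adjusted p = 0.0022). Its 2 annotated protein-coding transcripts, from start sites that give the INK4A and ARF proteins, share 66.5% and 63.1% of their words, and 1 value per gene does not tell them apart. Cdkn2b, its neighbour 11669 bases away on chromosome 4, stood at 17.8 and 17.1 FPKM in white, above the 12.95 and 13.4 FPKM of beige (-0.38, SE 0.09, adjusted p = 0.00687). Cdkn2c, which encodes p18, stood at 49.0 and 50.9 FPKM in white, well above the 31.2 and 33.7 FPKM of beige (-0.61, SE 0.16, adjusted p = 0.0119). Without WT beige replicate 1 neither of the latter passed, with adjusted p = 0.0531 for Cdkn2b and 0.0706 for Cdkn2c in limma, and without WT white replicate 2 Cdkn2c had adjusted p = 0.0509. Cdkn1b, which encodes p27, stood at 12.9 and 14.2 FPKM in white and 11.1 and 11.3 FPKM in beige (-0.25, interval -0.52 to 0.01, adjusted p = 0.0974), and passed without small RNA genes (adjusted p = 0.022).

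Rb1, whose protein the inhibitors keep active, went the other way. Both WT beige libraries, at 11.1 and 10.3 FPKM, were above both WT white ones, at 7.41 and 7.86 FPKM (0.44, SE 0.09, adjusted p = 0.00431). Of the words of its transcripts, 12.8% are shared with its opposite-strand neighbours Rcbtb2 and Lpar6, whose reads could be counted with it if strand was not used.

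KO-labelled cultures gave 5 members lower in beige (Cdkn1a, Cdkn1b, Cdkn2a, Ccng1 and Trp53inp1) and 1 higher (Rb1), where 61% of all genes passed, 34.3% lower and 26.6% higher. These same 6 were the members without overlap between the groups, against 44.7% of all genes lower and 36.2% higher. Cdkn2a stood at 10.5 and 12.2 FPKM in white and 4.28 and 6.36 FPKM in beige (-0.99, SE 0.19, adjusted p = 0.00176), and Trp53inp1 at 23.3 and 20.7 against 10.5 and 12.3 FPKM (-0.89, adjusted p = 0.000421). Cdkn1a stood at 72.2 and 72.3 FPKM in white against 56.0 and 52.1 FPKM in beige (-0.41, adjusted p = 0.00396). The fall of Ccng1, with white libraries at 56.6 and 51.4 FPKM and beige ones at 39.8 and 41.8 FPKM (-0.40, adjusted p = 0.00685), lost the call without KO-labelled white replicate 1 (adjusted p = 0.0682). That of Cdkn1b, with white libraries at 15.1 and 16.4 FPKM and beige ones at 12.3 and 9.89 FPKM (-0.47, adjusted p = 0.00687), lost it without KO-labelled white replicate 2 (adjusted p = 0.0546). Rb1 was higher in both beige libraries, at 11.1 and 11.9 FPKM, than in the white ones, at 6.42 and 5.89 FPKM (0.81, SE 0.09, adjusted p = 9.52e-05).

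Cdkn2b and Cdkn2c, which fell in WT, differed by -0.00 (interval -0.21 to 0.20) and -0.08 (interval -0.45 to 0.29) between KO-labelled beige and white cultures, and their libraries overlapped. The test of that difference between genotypes, the interaction of genotype and rosiglitazone, did not pass for either (Cdkn2b 0.38, interval 0.09 to 0.67, adjusted p = 0.216, and Cdkn2c 0.53, interval 0.01 to 1.05, adjusted p = 0.295). In limma 0 of the 10 members passed the interaction, where 0.292% of all genes did, and 4 had an unadjusted p under 0.05: Cdkn2b, Cdkn2c, Ccng1 and Rb1. For Ccng1 the difference was 0.41 (adjusted p = 0.213) and for Rb1 0.37 (adjusted p = 0.231).

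**Figure D2:**
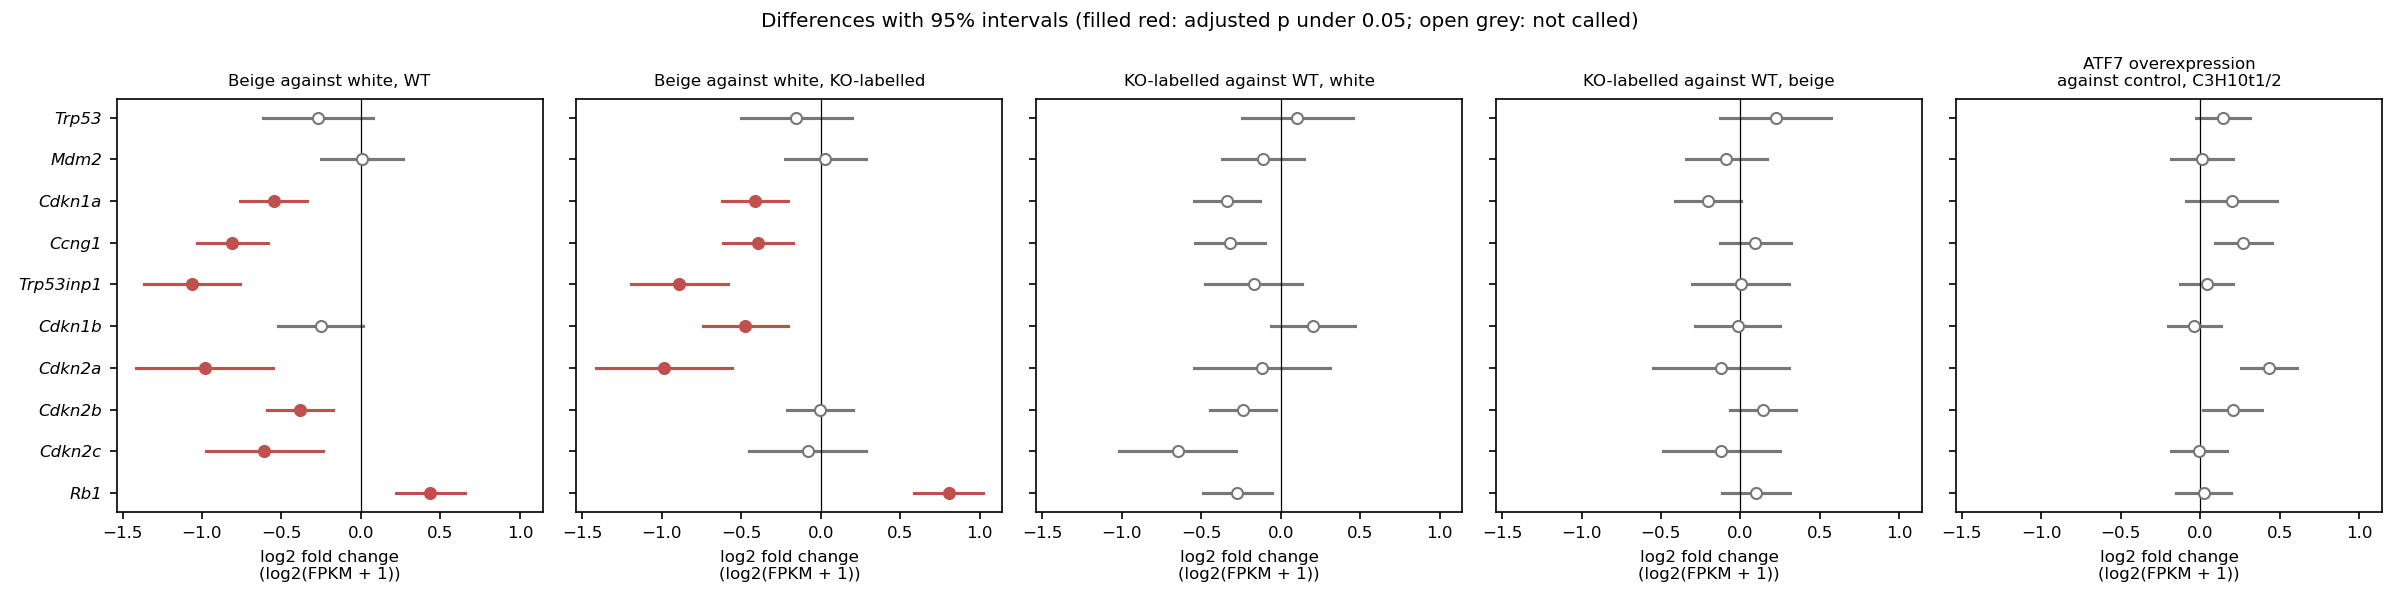
Difference of each of the 10 genes on the log2(FPKM + 1) scale (horizontal axis) in 5 comparisons, with 95% intervals as bars; filled red points have an adjusted p under 0.05 in limma. The panels of beige against white both hold red points, 7 for WT and 6 for KO-labelled cultures, and the 3 panels on ATF7 hold none.

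Other genes of the pathway divided in the same comparison. Of 34 other p53 target genes, 30 passed the filter, and in WT beige against white 13 were lower and 6 higher, with a median of -0.17 (8 higher and 13 lower after quantile normalization, 3 and 16 without small RNA genes). Over all genes 32.1% were lower and 21.6% higher, with a median of -0.10, so many calls are no trait of this list. The same shares stand beside the counts of the lists that follow for WT beige against white. Sesn1, a sestrin that restrains growth signalling, stood at 9.10 and 8.78 FPKM in white and 2.88 and 1.83 FPKM in beige (-1.58, adjusted p = 4.85e-05). Ckap2 and Psrc1, both also spindle genes of dividing cells, fell by 1.20 and 1.18. Ckap2, at 0.284 and 0.266 FPKM in WT beige, passed the filter only through the white libraries and so had to differ. Its place among the 13 lower genes is no support for a direction. Gadd45a, a growth arrest gene that other stress pathways also induce, was higher in beige, at 32.1 and 35.7 FPKM, than in white, at 11.5 and 12.2 FPKM (1.44, adjusted p = 1.2e-05). Gdf15, a stress cytokine named after its value was seen, had the largest rise of the list (2.37, adjusted p = 0.000123). In KO-labelled cultures 14 were lower and 7 higher, where 34.3% of all genes were lower and 26.6% higher, with Sesn1 at -2.22 and Gadd45a at 1.97.

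Among 23 regulators and relatives of p53, 20 passed the filter, with 4 lower and 2 higher in WT beige and a median of -0.06 (3 lower, 4 higher and a median of 0.05 after quantile normalization, 7 lower, 1 higher and a median of -0.18 without small RNA genes). Without WT beige replicate 1 it was 4 lower and 0 higher, without WT beige replicate 2 it was 2 and 1, and without WT white replicate 1 it was 3 and 0. Twist1, a mesenchymal factor that can restrain p53, fell by 0.95 (adjusted p = 0.000104). The p53-binding genes Trp53bp2 and Trp53bp1 and the ubiquitin ligase Rchy1 fell by 0.47, 0.53 and 0.55. Of 21 other inhibitors and pocket protein genes, 4 were lower and 5 higher (3 and 6 after quantile normalization, 7 and 4 without small RNA genes). Gas1, a growth arrest gene of fibroblasts, stood at 53.8 and 59.6 FPKM in white and only 11.2 and 8.46 FPKM in beige (-2.43, adjusted p = 3.56e-06). Cdkn1c, the third inhibitor of the p21 kind, went from 7.25 and 8.33 to 2.07 and 2.10 FPKM (-1.51), and Rbl2, a relative of Rb1, fell by 0.69. Trp53inp2, the paralogue of Trp53inp1, had 31.7 and 29.9 FPKM in white and rose in beige to 62.6 and 66.0 FPKM (1.04, adjusted p = 9.53e-05), opposite in direction to Trp53inp1.

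Genes of the cell cycle itself were next. Of 15 tested G1 cyclins, kinases and activating E2F genes, 7 were lower and 4 higher in WT (5 and 4 after quantile normalization, 8 and 2 without small RNA genes, 4 and 2 without WT beige replicate 2). Ccnd1 (cyclin D1) stood at 11.9 and 9.80 FPKM in white and 1.77 and 1.54 FPKM in beige (-2.15, adjusted p = 1.53e-06), and E2f1 fell by 0.70, while Myc rose by 0.92. The summed level of 28 genes of S phase and mitosis was 58.0 to 59.1 FPKM in WT white and 27.2 to 28.5 FPKM in WT beige libraries. Of the 25 that passed the filter 20 were called lower (13 after quantile normalization), but low genes such as Mki67 and Gins2 passed only through the white libraries and so had to differ, and the count supports nothing by itself. Mki67, the proliferation marker Ki-67, had 1.55 and 1.31 FPKM in white but 0.246 and 0.159 FPKM in beige (-1.01, adjusted p = 7.27e-05). The 6 members that fell and the sum of S and M phase genes were thus higher in the same WT white libraries.

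Markers of other cells moved with these groups. Of 10 macrophage markers all 10 were lower in WT beige, with a summed level of 486 to 530 FPKM in WT white, 698 to 746 in KO-labelled white, 25.2 to 25.9 in WT beige and 23.5 to 28.6 FPKM in KO-labelled beige, and none at 0 in these cultures. In C3H10t1/2 their sum was 1.09 to 1.58 FPKM, with Fcgr3, C1qa, C1qb and Itgam listed at 0 in all 4 libraries. Of 11 preadipocyte and fibroblast markers 10 were tested and all 10 were lower in WT beige, with sums of 2046 to 2585 FPKM in WT white against 493 to 495 FPKM. Over all genes 32.1% were called lower in this comparison. Pi16, at 0.206 and 0.109 FPKM in WT beige, and Cd34, at 1.19 and 0.640 FPKM, passed the filter only through white libraries. They had to differ, so the count supports nothing by itself. Dcn, Thy1, Ly6a, Pdgfra and Lum reached 1 FPKM in both WT beige libraries too, so the filter did not fix their result. Adipocyte core genes summed to 6441 to 7439 FPKM in WT white and 13220 to 13830 FPKM in WT beige, but the list did not move as a whole. Of its 15 genes 9 were called higher in WT beige and 3 lower: Cfd (-3.75), Dgat2 (-2.71) and Retn (-1.29). Beige markers summed to 54.6 to 58.6 FPKM in WT white against 792 to 835 FPKM in WT beige, with Ucp1, the uncoupling protein, listed at 0 in all 4 white libraries. The part of these cells in the differences of the members was not tested, and in bulk RNA fewer cells of a type and less RNA per cell cannot be told apart.

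**Figure D3:**
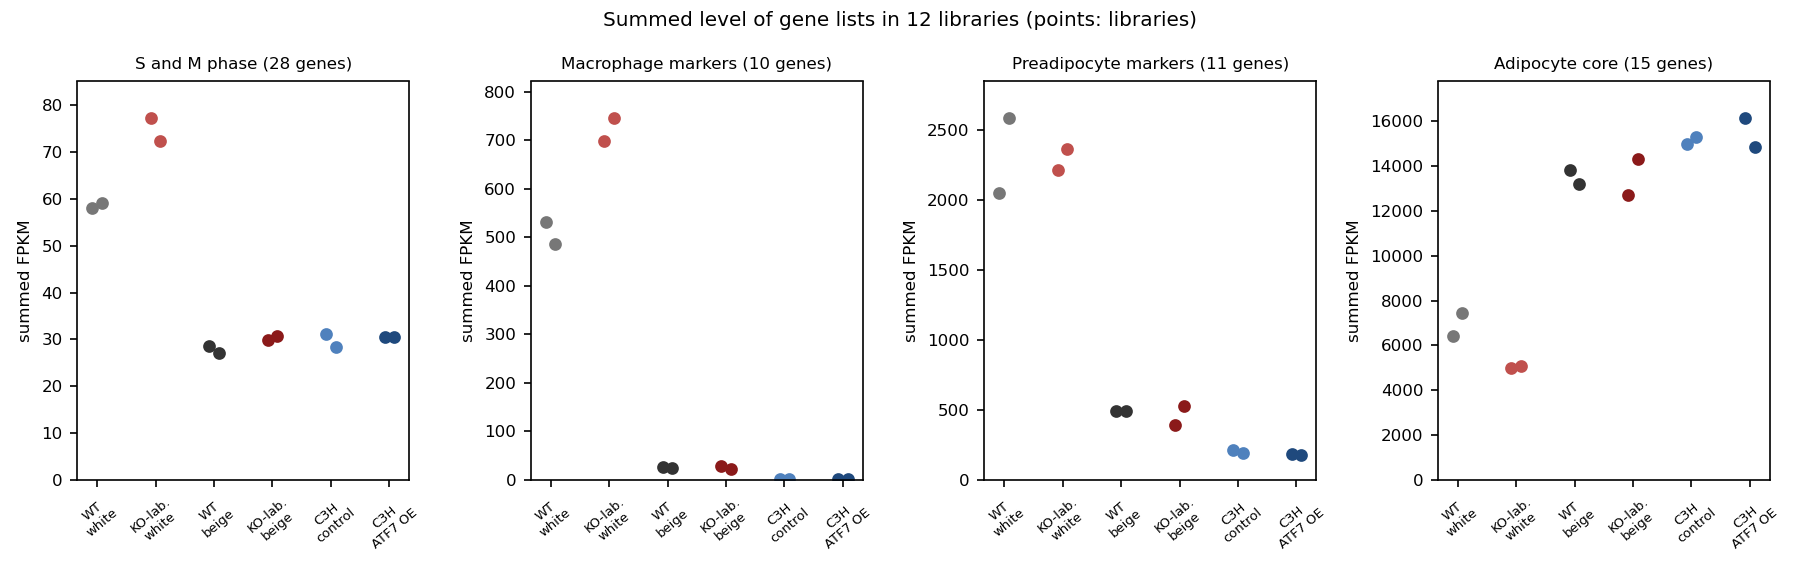
Summed FPKM (vertical axes from 0) of 4 gene lists in each of the 12 libraries, with groups along the horizontal axis as WT or KO-labelled (KO-lab.) white and beige cultures and C3H10t1/2 (C3H) control or ATF7 overexpression (OE). White libraries hold the highest sums of S and M phase genes, macrophage markers and preadipocyte markers and the lowest of adipocyte core genes.

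**Figure D4:**
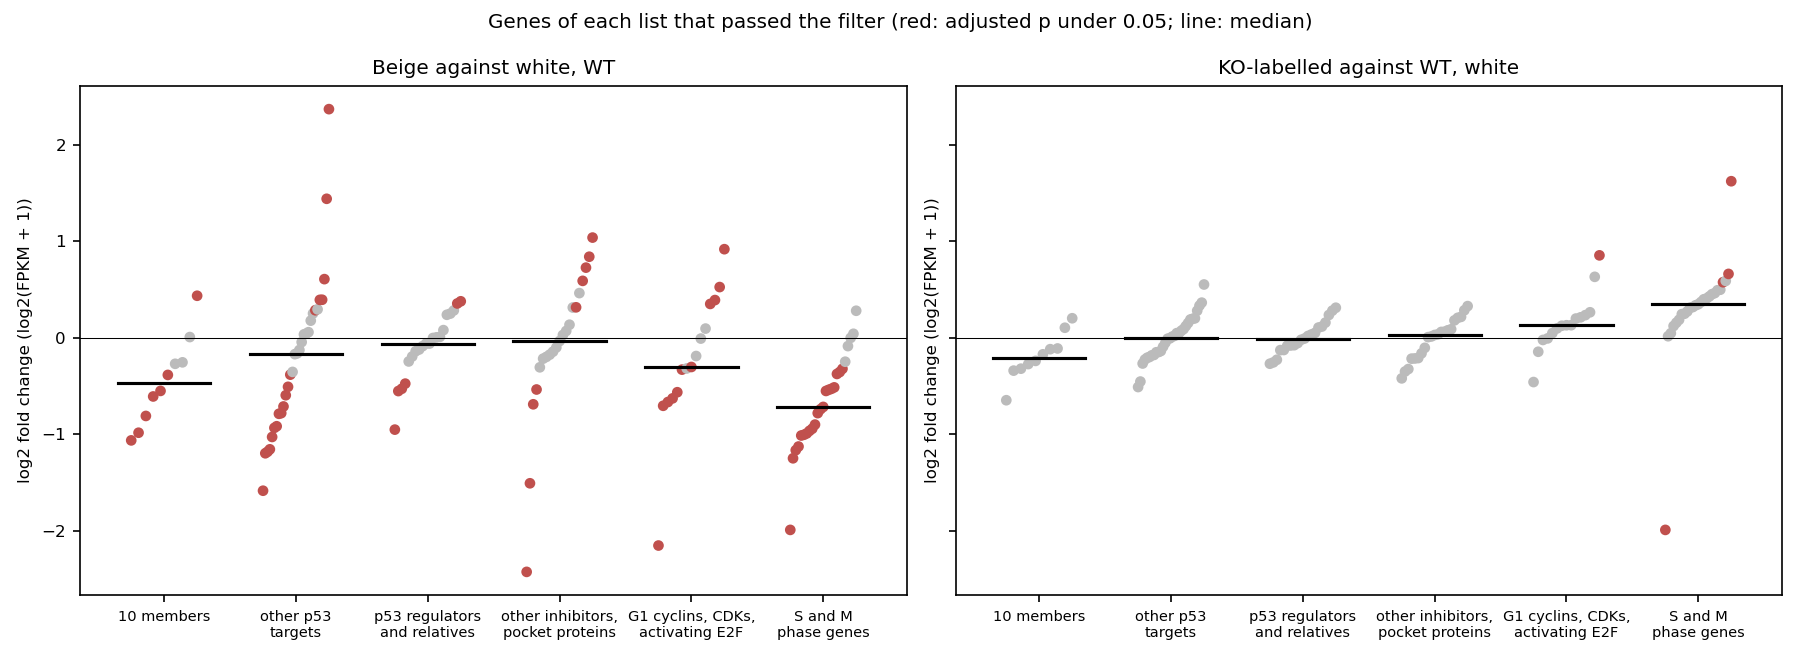
Difference of each tested gene on the log2(FPKM + 1) scale (vertical axis) for the 10 members and 5 other lists, in WT beige against white and in KO-labelled against WT white cultures; points are genes, red has an adjusted p under 0.05, and lines are medians. In beige against white the median is -0.47 for the members and -0.17 for other p53 targets, and in KO-labelled against WT white it is -0.21 and 0.00; low S and M phase genes passed the filter only through white libraries.

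The comparison of KO-labelled with WT white cultures asks whether ATF7 affects these genes without rosiglitazone. It shares the WT white libraries with the comparison of beige and white above, so the 2 are not independent. By limma 0 of the 10 members passed, where 1.89% of all 11294 genes did, 1.27% higher and 0.62% lower, and 5 had an unadjusted p under 0.05 (Cdkn1a, Cdkn2b, Cdkn2c, Ccng1 and Rb1). All 5 were lower in KO-labelled cultures with no overlap of the groups, as 21.2% of all genes were, and Trp53 and Cdkn1b were higher without overlap, as 32.1% of all genes were. The members' median was -0.21 against 0.03 for all genes. Of the calls over all genes, 67.1% were higher, against 53.3% after quantile normalization.

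Cdkn2c stood at 49.0 and 50.9 FPKM in WT white and at 34.6 and 28.8 FPKM in KO-labelled white. It was the largest difference of the members and did not pass (-0.65, interval -1.01 to -0.28, adjusted p = 0.0847). It passed after quantile normalization (adjusted p = 0.044) and with all 12 libraries in 1 fit (adjusted p = 0.0334). Cdkn1a stood at 91.6 and 91.8 against 72.2 and 72.3 FPKM (-0.34, interval -0.55 to -0.13, adjusted p = 0.1). Ccng1 had 65.2 and 70.0 FPKM in WT and was lower in KO-labelled white with 56.6 and 51.4 FPKM (-0.32, adjusted p = 0.128). For Rb1 the WT values were 7.41 and 7.86 FPKM and the KO-labelled ones 6.42 and 5.89 FPKM (-0.27, adjusted p = 0.167), and for Cdkn2b 17.8 and 17.1 FPKM and 15.3 and 14.02 FPKM (-0.24, adjusted p = 0.197).

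In the opposite direction, Cdkn1b stood at 12.9 and 14.2 FPKM in WT, below the 15.1 and 16.4 FPKM of KO-labelled white (0.20, adjusted p = 0.365). Trp53 stood at 10.7 against 11.6 FPKM, the same in both libraries of each genotype to the digits shown (0.10, interval -0.24 to 0.45, adjusted p = 0.742). Mdm2, Cdkn2a and Trp53inp1 overlapped between the genotypes, with adjusted p from 0.511 to 0.766.

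Other p53 targets gave 0 calls of 30 in limma (1 higher and 1 lower after quantile normalization, 1 lower without small RNA genes), with a median of 0.00. Dram1, a lysosomal protein of p53-induced autophagy, had the lowest p of them, with WT libraries at 25.1 and 22.2 FPKM and KO-labelled ones at 15.4 and 17.2 FPKM (-0.51, adjusted p = 0.0574). The 21 other inhibitors and pocket protein genes gave 0 calls too, with 13 above 0, 8 below and a median of 0.03. Of the G1 genes 1 was called. Ccnd1 was higher in both KO-labelled white libraries, at 20.1 and 20.5 FPKM, than in WT, at 11.9 and 9.80 FPKM (0.85, SE 0.11, adjusted p = 0.0109), and its interaction with rosiglitazone was -1.11 (adjusted p = 0.0326). With a library left out, interactions of G1 genes were called only without WT white replicate 1, and the call was lost without each of the other 7. Mki67 was at 2.91 and 2.77 FPKM, above its 1.55 and 1.31 FPKM in WT (0.66, adjusted p = 0.0269). The sum of the 28 S and M phase genes was 72.3 to 77.4 FPKM against 58.0 to 59.1 FPKM. Of them 3 were called higher and 1 lower, all 4 of them low genes. Bub1b and Cdc20 passed the filter only through KO-labelled white libraries and Gins2 only through WT white ones. Their directions were thus fixed by the filter, and the count is no support for a direction. Mki67 reached 1 FPKM in all 4 white libraries, so the filter did not fix its direction. Beside Mki67 the higher ones were Bub1b, of the spindle checkpoint (0.58, adjusted p = 0.0418), and Cdc20, listed at 0 in WT, with 1.80 and 2.39 FPKM in the KO-labelled libraries. The lower one was Gins2, of the replication helicase, at 3.17 and 2.79 FPKM in WT but listed at 0 in KO-labelled white. A 0 in this kind of file can be a failed estimate. Without KO-labelled white replicate 1 or replicate 2, 0 were called higher and 1 lower, of 19 that then passed the filter, and 0 G1 genes were called. Without WT white replicate 1 it was 2 higher and 0 lower, and without replicate 2 it was 1 higher and 0 lower with 0 G1 genes called. Macrophage markers, summed at 486 to 530 FPKM in WT and 698 to 746 FPKM in KO-labelled white, moved with the cell cycle genes (all 10 above 0, 3 called higher), and the sum of adipocyte core genes was 4997 to 5097 against 6441 to 7439 FPKM, with 2 of 15 called lower (Cidec and Cd36), 4 without WT white replicate 1 and 0 without WT white replicate 2 or either KO-labelled white library. Their part in these values was not tested.

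Between KO-labelled and WT beige cultures the members differed little. By limma 0 of 10 passed, where 0.151% of all genes did, 0.0531% higher and 0.0974% lower, and 0 had an unadjusted p under 0.05. Cdkn1a stood at 56.0 and 52.1 FPKM in KO-labelled and 62.6 and 62.0 FPKM in WT beige, the lower side without overlap that 14.1% of all genes shared (-0.20, interval -0.41 to 0.01, adjusted p = 0.491). Cdkn2b was at 15.03 and 14.2 against 12.95 and 13.4 FPKM (0.14, interval -0.07 to 0.35, adjusted p = 0.64). Ccng1 (0.09) and Rb1 (0.10) were also higher without overlap, as 27.1% of all genes were. The widest interval was that of Cdkn2a, from -0.55 to 0.31, with KO-labelled libraries at 4.28 and 6.36 FPKM. Trp53 had one KO-labelled beige library above and one within the WT values, at 12.4 and 8.56 FPKM (0.22, adjusted p = 0.66), and without KO-labelled beige replicate 2 its difference was -0.02. Among the other lists 0 genes were called, and S and M phase genes summed to 29.8 to 30.8 FPKM against 27.2 to 28.5 FPKM.

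In C3H10t1/2 the comparison of overexpression with control asks what more ATF7 does in beige cells. By limma 0 of 10 members passed, where 1.49% of 9981 genes did, 0.431% higher and 1.06% lower, and Cdkn2a, Cdkn2b and Ccng1 had an unadjusted p under 0.05. All 3 were higher with ATF7 overexpressed, and together with Trp53 did not overlap between the groups, as for 20.3% of all genes in that direction and 28.8% in the other. The members' median was 0.09 against -0.02 for all genes, and of the calls over all genes 28.9% were higher, or 43.4% without small RNA genes.

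Cdkn2a stood at 4.67 and 4.45 FPKM in the controls and 6.53 and 6.46 FPKM with overexpression. The difference was above the spread of the libraries but just missed the threshold (0.43, interval 0.25 to 0.61, adjusted p = 0.0568), and passed without small RNA genes (adjusted p = 0.0388). Cdkn2b stood at 7.33 and 7.07 against 8.85 and 8.06 FPKM (0.20, interval 0.02 to 0.39, adjusted p = 0.254). Ccng1 stood at 39.5 and 42.6 against 51.7 and 47.7 FPKM (0.27, interval 0.09 to 0.45, adjusted p = 0.146). Trp53, at 8.49 and 8.91 FPKM in the controls, was at 9.84 and 9.58 FPKM with overexpression (0.14, interval -0.03 to 0.31, adjusted p = 0.361).

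Cdkn1a overlapped between the groups, at 38.5 and 43.3 against 52.5 and 42.0 FPKM (0.20, adjusted p = 0.452). The other 5 members had intervals within -0.21 and 0.21, Cdkn2c among them at 77.2 and 83.5 against 77.4 and 82.5 FPKM. Among the other p53 targets, the regulators of p53, the other inhibitors and the cell cycle lists 0 genes passed. Without small RNA genes 1 of the other inhibitors was called higher. Only 10 of the 28 S and M phase genes passed the filter in this line, so the rest could not be called. Dram1 had again the lowest p of the p53 targets, at 22.5 and 26.1 against 32.5 and 32.4 FPKM (0.41, adjusted p = 0.0854). S and M phase genes summed to 28.3 to 31.2 FPKM in the controls and 30.5 to 30.6 FPKM with overexpression. Markers of the cell state did move. The 6 beige markers summed to 992 to 1071 FPKM in the controls and 596 to 726 FPKM with overexpression, and 3 of the 5 tested were called lower: Ucp1 (-2.16, adjusted p = 0.00198), the lipid droplet gene Cidea (-1.79, adjusted p = 0.000472) and the fatty acid elongase Elovl3 (-1.51, adjusted p = 0.00451). Of 15 adipocyte core genes Cfd was higher (0.65, adjusted p = 0.0304) and Dgat2 lower (-0.43, adjusted p = 0.0341), and of the 8 preadipocyte markers tested 0 were called, with sums of 193 to 212 against 175 to 184 FPKM. The part of these changes in the values of the members was not tested.

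Set side by side, the C3H10t1/2 controls and WT primary beige cultures, both with rosiglitazone, had other inhibitors at the top. In the line Cdkn2c, at 77.2 and 83.5 FPKM, was above Cdkn1a, at 38.5 and 43.3 FPKM. In WT beige Cdkn1a, at 62.6 and 62.0 FPKM, was above Cdkn2c, at 31.2 and 33.7 FPKM. Cdkn2b was lower in the line, at 7.33 and 7.07 against 12.95 and 13.4 FPKM, and Cdkn2a stood at 4.67 and 4.45 against 6.45 and 5.16 FPKM. Mdm2 overlapped, at 14.1 and 14.8 against 14.6 and 13.9 FPKM. Cell source, strain and experiment go with the group here and cannot be told apart, and no test was made.

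Over the 12 libraries, which share the split into white, beige and C3H10t1/2, the members fell into patterns. Ccng1 and Trp53inp1 had a Pearson's r of 0.93 on log2 values, Cdkn2a and Trp53inp1 0.92, and Cdkn1a and Cdkn2b 0.89. Trp53 had an r of 0.47 with Cdkn1a and 0.59 with Ccng1, and Mdm2 had -0.12 with Cdkn1a and 0.04 with Ccng1. Rb1 ran against Trp53inp1 (-0.85) and Cdkn2c against Cdkn2b (-0.77). Of 9897 other genes, Trim28, a corepressor of chromatin, was most like Trp53inp1 (r 0.995), followed by Phip and the cyclophilin Ppic (0.981 each). For Cdkn1a the 3 most alike were Cldn15, a claudin of cell junctions (0.964), the mRNA-binding Cpeb2 (0.956) and the secreted Olfm1 (0.954). For Ccng1 they were Ivd, of leucine breakdown (0.981), the esterase Bche (0.946) and Prps1, of nucleotide synthesis (0.944). For Cdkn2b they were the signal peptidase subunit Spcs3 (0.99), the apolipoprotein Apoc1 (0.987) and the mitochondrial carrier Sfxn2 (0.98). These are descriptions over 12 libraries, and with so few groups many genes share a pattern.

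By position, 4 of the 10 members lie on chromosome 4 (mm10): Trp53inp1 from 11156441 to 11174377, Cdkn2a from 89274473 to 89294619, Cdkn2b from 89306289 to 89311032 and Cdkn2c from 109660876 to 109666756. Ccng1 (40748552 to 40755286) and Trp53 (69580359 to 69591873) lie on chromosome 11. Cdkn2a and Cdkn2b, although neighbours, had an r of 0.61, and among KO-labelled cultures the first fell with rosiglitazone (-0.99) while the second differed by -0.00. The 10 genes share 0 words of 36 bases with each other, so reads could not be exchanged between them. Trp53 shares 8.29% of its words with other annotated genes, chiefly the pseudogene Trp53-ps, Mdm2 shares 1.71%, and Cdkn1b, Cdkn2a, Cdkn2b, Cdkn2c, Ccng1 and Trp53inp1 share 0.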

How the data were processed

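Per the labels' protocols, libraries were directional, made after depletion of ribosomal RNA, and read for 36 bases from both ends. The authors deposited FPKM values, 1 per gene and library, per the file headers, on mm10 (GRCm38) per the submitters' processing notes. Which aligner, quantifier and annotation made them, and whether strand was used, is not given in the sources used here. Low values showed no common step between libraries (at most 3.02% of ratios in any narrow bin), so reads could not be recovered and no count test or counting interval is given.

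Groups came from the sample titles. The test was limma 3.58.1 (eBayes with trend, two-sided) in R 4.3.3 with Benjamini-Hochberg adjustment over all genes tested; values were log2(FPKM + 1), and a gene was tested if 2 or more of the fitted libraries reached 1 FPKM. The 8 primary libraries were fitted together (11294 genes, 4 residual degrees of freedom) and the 4 of C3H10t1/2 on their own (9981 genes, 2 residual degrees of freedom), with no replicate block. The script was tested on simulated data. Every member is named. Of 6 gene lists up to 4 genes per comparison with the lowest p could be named, and of 9897 other genes the 3 most like each of Cdkn1a, Cdkn2b, Ccng1 and Trp53inp1. Words of 36 bases and exon overlaps came from GENCODE M21, start-site sequences from RefSeq. Python 3.11.15 was used for these. The members and the lists were chosen with earlier results of these data known. Alternatives were a pseudocount of 0.1, no filter, quantile normalization, leaving out small RNA genes, all 12 libraries in 1 fit, a replicate block, and leaving out each library.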

Additional observations from a re-analysis of the deposited data

How the results depend on the processing

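With 2 libraries a group and unknown depth, differences under about 0.3 on the log2 scale were mostly within the intervals. Of the 13 member differences that passed, none changed direction under any alternative or left-out library, and all passed under the alternatives that kept every library; with a library left out, 5 of 52 values no longer passed, those named in the report. Of the 47 that did not pass, 6 values passed under another setting and 1 with a library left out (Trp53, beige against white in KO-labelled cultures, without KO-labelled beige replicate 2). The number of members called changed from 0 to 1 in KO-labelled against WT white after quantile normalization and with all 12 libraries in 1 fit (Cdkn2c), and from 0 to 1 with overexpression without small RNA genes (Cdkn2a). The cause was not tested.

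Counts over all genes moved more. In KO-labelled against WT beige 17 genes were called, 27 with the replicate block, 26 with all 12 libraries and 5 to 20 with a library left out. In white 213 were called, 54 with a pseudocount of 0.1, 122 without the filter, 349 after quantile normalization, 642 with all 12 libraries and 23 to 277 with a library left out. The interaction had 33, 20 with a pseudocount of 0.1, 116 with all 12 libraries and 16 to 43 with a library left out. Overexpression had 149, 22 without the filter, 88 with the replicate block and 17 to 138 with a library left out. The replicate numbers are not said to mark a shared batch, deviations of same-numbered libraries correlated at -0.087 to 0.124 across genes, and the block changed the call of 0 members.

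Differences that did not pass changed sign as follows. After quantile normalization Cdkn2c with overexpression was 0.078, Mdm2 in KO-labelled beige against white -0.022, Mdm2 in the interaction -0.036 and Trp53inp1 in KO-labelled against WT beige -0.075. Without small RNA genes these 4 were 0.028, -0.17, -0.031 and -0.041, and Mdm2 in WT beige against white was -0.14. With a library left out, KO-labelled against WT beige ranged from -0.16 to 0.13 for Cdkn1b, -0.36 to 0.12 for Cdkn2a, -0.37 to 0.13 for Cdkn2c, -0.020 to 0.46 for Trp53 and -0.11 to 0.11 for Trp53inp1. KO-labelled against WT white ranged from -0.31 to 0.073 for Cdkn2a and -0.24 to 0.024 for Mdm2. KO-labelled beige against white ranged from -0.063 to 0.056 for Cdkn2b, -0.33 to 0.17 for Cdkn2c, -0.030 to 0.089 for Mdm2 and -0.39 to 0.088 for Trp53, and WT beige against white from -0.13 to 0.14 for Mdm2. The interaction ranged from -0.24 to 0.24 for Cdkn2a, -0.11 to 0.15 for Mdm2 and -0.13 to 0.36 for Trp53. Overexpression ranged from -0.064 to 0.048 for Cdkn2c, -0.071 to 0.091 for Mdm2, -0.020 to 0.062 for Rb1 and -0.0028 to 0.082 for Trp53inp1.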
